A study of Homo sapiens with 4 samples.

Results

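Transcripts of 34 genes of the synaptic vesicle and its release machinery were examined in cultured SH-SY5Y cells, an established line of human neuroblastoma with neuronal features. The genes were a named list, and each was measured by the probe sets whose platform annotation gave its symbol alone. All 34 had such a probe set, out of 19775 genes measured in the series, and the brightest probe set over the 4 arrays stood for the gene. One group, siLSD1, received a small interfering RNA (siRNA) directed at LSD1, the histone lysine demethylase encoded by KDM1A. The other group, siControl, was the same line transfected with a control siRNA. Each group held 2 Affymetrix arrays, which the submitters' design text describes as independent transfections, so the spread in the tests is that between separate transfections of a single line. The labels used here do not state the transfection time or the siRNA sequences.

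Neurotransmitter is stored in small vesicles that dock at a specialised site of the membrane, the active zone, and fuse with it when calcium enters. Fusion is driven by SNARE proteins on the vesicle and on the cell membrane, which zip together and are later pulled apart by the ATPase NSF. Synaptotagmins sense the calcium, complexins hold the SNARE complex ready, synapsins tether the vesicle reserve, Rab3 proteins and their effectors guide vesicles to the membrane, and clathrin adaptors with the GTPase dynamin recover the vesicle membrane. Many genes of this machinery carry a binding element called RE1 for REST, a repressor of neuronal genes that works with CoREST, a corepressor complex which contains LSD1.

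Signals are log2 values after quantile normalization of the arrays. A gene was tested if its mean signal over the arrays reached 4.12, the 40th percentile of all genes, and 11865 genes were. Signals of different probe sets do not rank transcripts, so each gene is compared only with itself. KDM1A, the target of the siRNA, had signals of 8.40 and 8.54 on the siLSD1 arrays, against 9.79 and 9.78 on the siControl arrays. That is a log2 fold change of -1.32 (95% interval -1.69 to -0.95), but its adjusted p over all genes was 0.39 in limma, and 0 of the 11865 genes passed the threshold of 0.05. Without siControl replicate 2, 83 genes passed in limma, KDM1A among them (adjusted p = 0.0474), and 0 of these were genes of the list. That fit sets the siLSD1 arrays against the array siControl replicate 1 alone, which is assumed to vary as they do. Without siLSD1 replicate 1 there was 1 gene, and without either of the other arrays 0. The array siControl replicate 1, the lone control of the fit with 83 genes, stood apart, with a mean correlation of 0.958 with the other arrays over the tested genes, where the other 3 arrays had 0.972 to 0.973. The array siLSD1 replicate 2 had a small-subunit ribosomal RNA control signal of 10.5 (deposited log2), where the other arrays had 5.21 to 6.02. It also had the largest 3′ over 5′ difference of the beta-actin control, 1.16 against 0.54 to 0.71 on the other arrays. Of the markers of the noradrenergic neuroblastoma cell, 7 of 8 measured ones were above the filter (PHOX2A, HAND2, GATA3, DBH, CHGA, ISL1 and ELAVL4), while TH lay below it. Of the other marker lists, 0 of 4 Schwann and glial genes, 1 of 5 blood genes and 7 of 7 fibroblast genes were above the filter. The fibroblast genes had a mean signal of 6.92 and 7.13 on the siLSD1 arrays and of 6.69 and 7.17 on the siControl arrays, and their part in the results was not tested.

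Most genes of the list lay above the filter, which is a cut on mean signal and not a call of expression. In the test between the groups 0 of them passed. Of the 34 genes, 30 were above the filter and were tested, where 11865 of all 19775 genes were. The other 4 were the calcium sensor SYT5, the vesicle glycoprotein SV2B, the synapsin SYN3 and the endocytic adaptor AMPH. In limma 0 of 30 passed at an adjusted p under 0.05 (0% of all genes tested) and the adjusted p was 0.9996 for each of them. At an unadjusted p under 0.05 there was 1 gene of 30, SYN2, where 3.45% of all genes tested lay under that level. In these bulk samples fewer cells of a type and less RNA per cell cannot be told apart. With 2 arrays in each group, the smallest two-sided p that an exact permutation test allows is 0.333.

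The mean was higher in siLSD1 cells for 20 and lower for 10 of the 30 genes, where 51.3% of all genes tested were higher. The median log2 fold change was 0.15, beside 0.0068 over all genes tested, and the interquartile range was -0.06 to 0.22, beside -0.15 to 0.19. The median was -0.11 without siControl replicate 2, where 10 of 30 genes were higher, and 0.01 without siLSD1 replicate 2, where 16 of 30 were. Centring the deposited values on each array's median moved the median of all genes to 0.18, and then 25 of the 30 genes were higher with a median of 0.34. With the deposited scaling 21 were higher, with a median of 0.16. With the mean of all probe sets of each gene 17 were higher, with a median of 0.07, beside -0.0077 over all genes. Both siLSD1 arrays lay above both siControl arrays for 7 of 30 genes, where 16.6% of all genes tested did, and below them for 3 of 30, where 15.1% did. Together these are 10 of 30, or 33.3%, beside 31.7% of all genes, so the share of genes with separate groups was near the background. By the mean of all probe sets, siLSD1 was higher with separate groups for 4 of the 30 genes and lower for 5. In that setting 33.2% of all genes had separate groups in either direction.

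**Figure D1:**
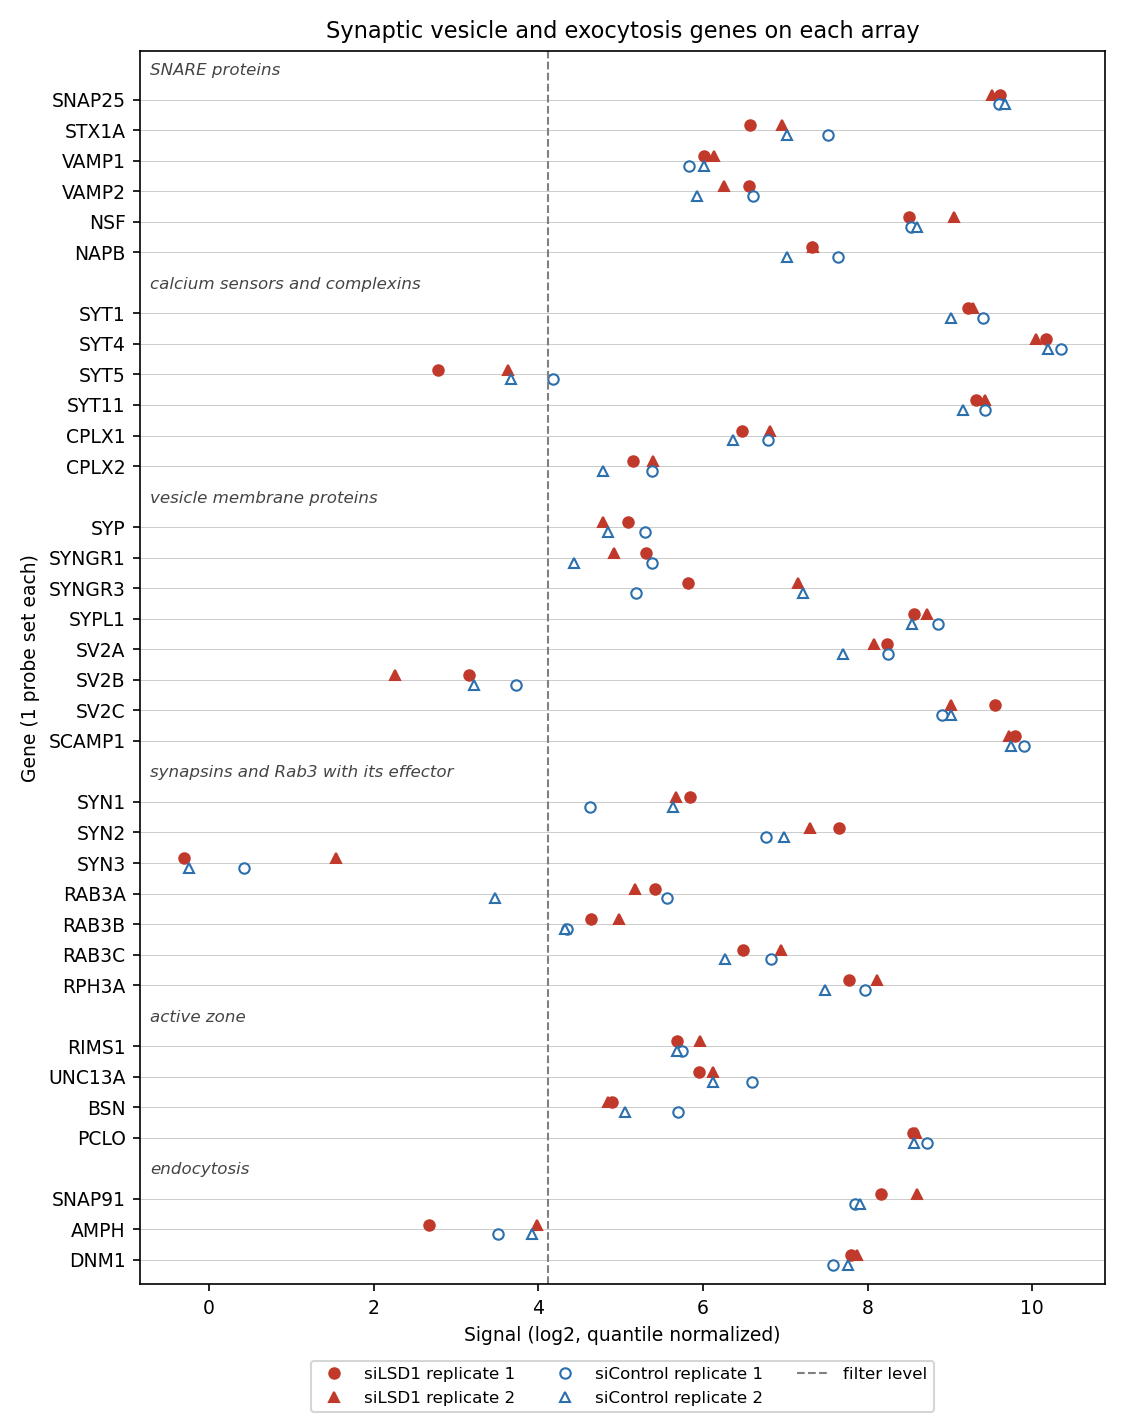
Signal (log2, quantile normalized) of each of the 34 genes on each array, 1 probe set per gene, grouped by role, with siLSD1 in filled red symbols above siControl in open blue symbols and the filter level of 4.12 as a dashed line. The groups interleave for most genes, SYN2, RAB3B and SNAP91 have gaps of 0.31, 0.29 and 0.26, and the means of SYT5, SV2B, SYN3 and AMPH lie below the filter.

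The siControl arrays differed from each other by more than arrays of different groups did, at these genes and, by little, over all genes tested. Over the 30 genes, the SD of the difference on the log2 scale was 0.37 between siLSD1 replicates 1 and 2 and 0.66 between siControl replicates 1 and 2. For the 4 pairs of a siLSD1 with a siControl array it ran from 0.38 to 0.56. Over all genes tested the SD was 0.382 between the siLSD1 arrays and 0.558 between the siControl arrays. Across groups it then ran from 0.378 to 0.557. The median deviation from each gene's own mean was -0.01 and 0.07 on the siLSD1 arrays, against 0.14 and -0.14 on the siControl arrays. Thus siControl replicate 1 was the highest array for 15 of 30 genes and siControl replicate 2 was the lowest for 14 of 30. Over all genes tested siControl replicate 1 was highest for 39.2% and siControl replicate 2 lowest for 31.2%. With 1 array left out, the log2 fold change changed sign in 18 of the 30 genes, and changed sign or moved by over 1.5 times in 29.

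**Figure D2:**
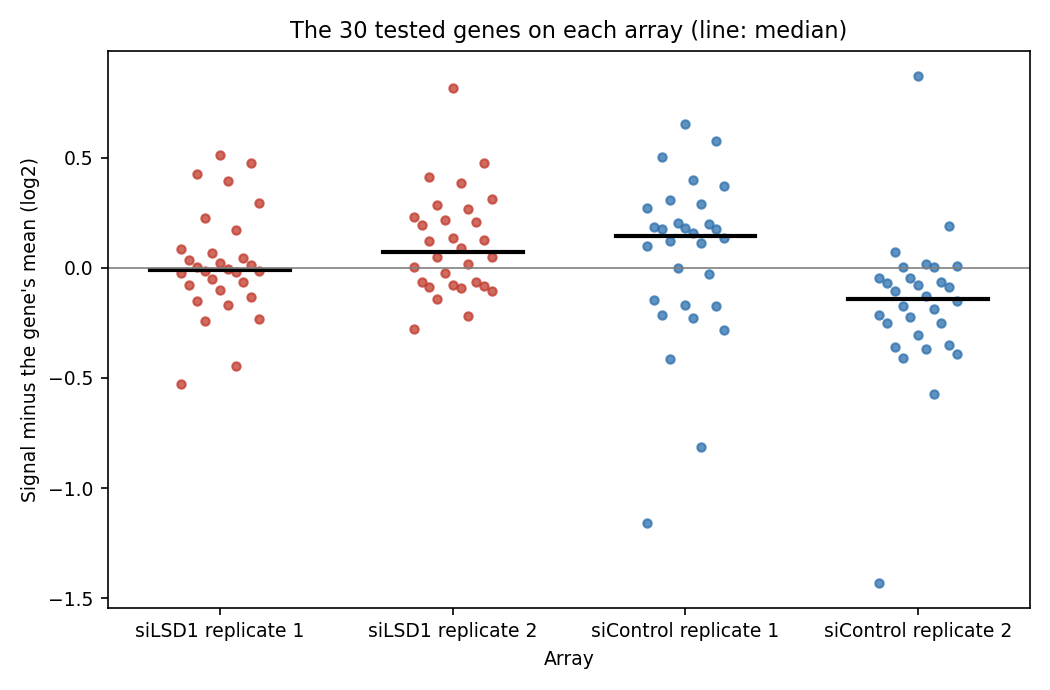
Deviation of each of the 30 tested genes from its own mean over the 4 arrays (log2), by array, with siLSD1 in red and siControl in blue and the median as a black line. The medians of the siLSD1 arrays, -0.01 and 0.07, lie between those of the siControl arrays, 0.14 and -0.14.

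Synapsins are phosphoproteins that hold vesicles in the reserve pool, and 0 of the tested ones passed. SYN2, by its brightest probe set, had signals of 7.65 and 7.30 on the siLSD1 arrays, against 6.76 and 6.99 on the siControl arrays. Both siLSD1 values lay above both siControl values, by 0.31 at the closest. This is a log2 fold change of 0.60, or 1.52-fold (95% interval 0.03 to 1.17), with an unadjusted p of 0.0416 and an adjusted p of 0.9996 in limma. It ran from 0.43 to 0.77 when each array was left out in turn. SYN2 was also measured by 4 other probe sets above the filter, and they did not move together, with log2 fold changes of 0.44, 0.10, -0.01 and -0.44. The mean of all SYN2 probe sets gave 0.14. The probe set with -0.44 had signals of 6.13 and 5.61 on the siLSD1 arrays, against 6.35 and 6.28 on the siControl arrays, and so its groups were separate in the opposite direction.

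SYN1, the synapsin gene on the X chromosome, had signals of 5.84 and 5.67 on the siLSD1 arrays, against 4.63 and 5.63 on the siControl arrays. One control value was low and the other lay 0.04 below the lower siLSD1 value. The log2 fold change was 0.63 (95% interval -0.28 to 1.53, unadjusted p = 0.15, adjusted p = 0.9996 in limma), and it was 0.12 without siControl replicate 1. A second probe set of SYN1 above the filter had signals of 5.23 and 4.33, against 5.45 and 4.49, with overlapping groups and a log2 fold change of -0.19. SYN3 was below the filter, with signals of -0.30 and 1.54 on the siLSD1 arrays and 0.42 and -0.25 on the siControl arrays.

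Because LSD1 works in a complex with REST, promoter windows of the genes were searched for the core of the RE1 element. The windows are those of RefSeq on GRCh38.p14, with 250 bases before and 50 bases from each annotated start, and 30 of the 34 genes had at least 1. The letters searched were CAGCACCNNGGACAG on both strands, where N is any base. They were found for 2 genes, SYN1 and RPH3A, in 3 of the 44 windows of the list, and in 18 of 35116 windows of all genes, or 0.0513%. Both RPH3A windows with the letters hold the same site, which lies 14 to 28 bases after another RPH3A start. The left part, CAGCACC, occurred in 9 of the 44 windows, where 7.75% of all windows hold it. The right part, GGACAG, occurred in 10 of the 44, where 20.5% hold it. Both counts include the 3 windows with the whole core. A match is a run of letters and does not show that REST or LSD1 was bound there in these cells. The lack of a match does not show that a gene has no RE1, since only these letters in these windows were searched. The SYN1 sequence is shown because it holds the match, at bases 231 to 217 before the start. The RPH3A stretch is shown for the same reason, and its match lies on the opposite strand at bases 196 to 182 before one of its starts. SYN2 is shown as the related gene with the widest gap between groups by its brightest probe set, in whose window those letters do not occur. All are written 5′ to 3′ on the strand of the gene, in lower case, with the RE1 core in capitals.
SYN1, chrX:47619858-47620107, minus strand: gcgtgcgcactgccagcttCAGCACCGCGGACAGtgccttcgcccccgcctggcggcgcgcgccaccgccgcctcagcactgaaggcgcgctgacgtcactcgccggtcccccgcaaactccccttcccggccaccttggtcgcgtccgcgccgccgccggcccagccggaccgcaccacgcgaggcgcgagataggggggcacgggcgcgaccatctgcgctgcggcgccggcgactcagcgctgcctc
RPH3A, chr12:112791546-112791572, plus strand: ttagcgCTGTCCGTGGTGCTGaccgcc
SYN2, chr3:12004138-12004387, plus strand: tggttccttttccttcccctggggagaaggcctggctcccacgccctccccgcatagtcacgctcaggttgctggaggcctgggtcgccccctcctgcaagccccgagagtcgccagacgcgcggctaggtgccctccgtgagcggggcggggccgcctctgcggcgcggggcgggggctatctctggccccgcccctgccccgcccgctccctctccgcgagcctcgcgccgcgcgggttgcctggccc

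RPH3A, the gene of rabphilin, an effector that binds Rab3 on vesicles, had signals of 7.77 and 8.12 on the siLSD1 arrays, against 7.97 and 7.48 on the siControl arrays. Its groups overlapped, and the log2 fold change was 0.22 (95% interval -0.36 to 0.80). The genes with the RE1 core, SYN1 and RPH3A, thus had log2 fold changes of 0.63 and 0.22, and neither passed the test. That of SYN1 was 0.12 without siControl replicate 1, and -0.19 by its second probe set above the filter. That of RPH3A was -0.02 without siControl replicate 2. SYN2 was shown because of its gap in these data, so its value of 0.60 is no comparison for genes without the core.

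Rab3 proteins, the small GTPases of secretory vesicles, had higher means in siLSD1 cells without passing the test. RAB3B had signals of 4.64 and 4.98 on the siLSD1 arrays, against 4.34 and 4.32 on the siControl arrays, with separate groups and a log2 fold change of 0.48 (95% interval -0.39 to 1.35). These values lay close to the filter level. RAB3A had 5.41 and 5.17 on the siLSD1 arrays, against 5.56 and 3.48 on the siControl arrays. One low control value set this difference, since the log2 fold change of 0.77 was -0.27 without siControl replicate 2 and 1.82 without siControl replicate 1. RAB3A was the only tested gene of the list with a value below the filter level. RAB3C had 6.48 and 6.95 against 6.83 and 6.27, a log2 fold change of 0.16 with overlapping groups. All 6 tested synapsin, Rab3 and rabphilin genes had higher means in siLSD1 cells (median log2 fold change 0.54), and 3 of the 6 had separate groups, where 16.6% of all genes tested did. Without siControl replicate 2 the mean was lower in siLSD1 cells for 3 of the 6, RAB3A (-0.27), RAB3C (-0.12) and RPH3A (-0.02).

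SNARE proteins, the fusion machinery, had means on both sides. SNAP25, a SNARE of the cell membrane, had signals of 9.61 and 9.51 on the siLSD1 arrays, against 9.59 and 9.67 on the siControl arrays. The groups overlapped, and the log2 fold change of -0.07 (95% interval -0.39 to 0.25) was 0.09 under median centring. STX1A, the syntaxin that pairs with SNAP25, had 6.57 and 6.95 on the siLSD1 arrays, against 7.52 and 7.02 on the siControl arrays. Both siLSD1 values were lower, by 0.07 at the closest, and the log2 fold change was -0.51 (95% interval -1.15 to 0.13, unadjusted p = 0.104, adjusted p = 0.9996 in limma). It was -0.26 without siControl replicate 1 and -0.76 without siControl replicate 2. VAMP1, a SNARE of the vesicle, had 6.02 and 6.13 on the siLSD1 arrays, against 5.83 and 6.01 on the siControl arrays, so that the groups were separate by less than 0.01.

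VAMP2, the main vesicle SNARE of the brain, had 6.56 and 6.25 on the siLSD1 arrays, against 6.61 and 5.93 on the siControl arrays. The log2 fold change was 0.14 with overlapping groups, and its other probe sets above the filter gave 0.20 and 0.21. NSF had 8.50 and 9.05 against 8.52 and 8.60, a log2 fold change of 0.22. NAPB, the adaptor that brings NSF to the SNARE complex, had 7.32 and 7.33 against 7.64 and 7.02, and its log2 fold change of -0.0034 was 0.03 with the deposited scaling and 0.21 after median centring. Of the 6 SNARE genes 3 had a higher and 3 a lower mean, and 1 had separate groups in each direction, where 16.6% of all genes tested did with siLSD1 higher and 15.1% with siLSD1 lower.

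Of the synaptotagmins, 3 were tested and 0 passed. SYT4, a synaptotagmin of dense-core and other secretory vesicles, had signals of 10.17 and 10.05 on the siLSD1 arrays, against 10.35 and 10.20 on the siControl arrays. Both siLSD1 values were lower, by 0.03 at the closest, and the log2 fold change was -0.16 (95% interval -0.44 to 0.12). SYT1, the fast calcium sensor of transmitter release, had 9.22 and 9.28 on the siLSD1 arrays, against 9.41 and 9.02 on the siControl arrays, with both siLSD1 values between the control values. Its log2 fold change was 0.04 (95% interval -0.38 to 0.45). SYT11, a synaptotagmin that does not bind calcium, had 9.32 and 9.42 against 9.43 and 9.16, a log2 fold change of 0.08. SYT5 lay below the filter, with 2.78 and 3.63 on the siLSD1 arrays and 4.18 and 3.66 on the siControl arrays.

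CPLX1, a complexin, had overlapping groups. It had 6.48 and 6.82 on the siLSD1 arrays, against 6.79 and 6.36 on the siControl arrays, a log2 fold change of 0.07. CPLX2, another complexin, had 5.15 and 5.39 against 5.38 and 4.78, also with overlapping groups, and its log2 fold change of 0.19 was -0.23 with the mean of its probe sets. In both genes siControl replicate 2 was the lowest array.

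**Figure D3:**
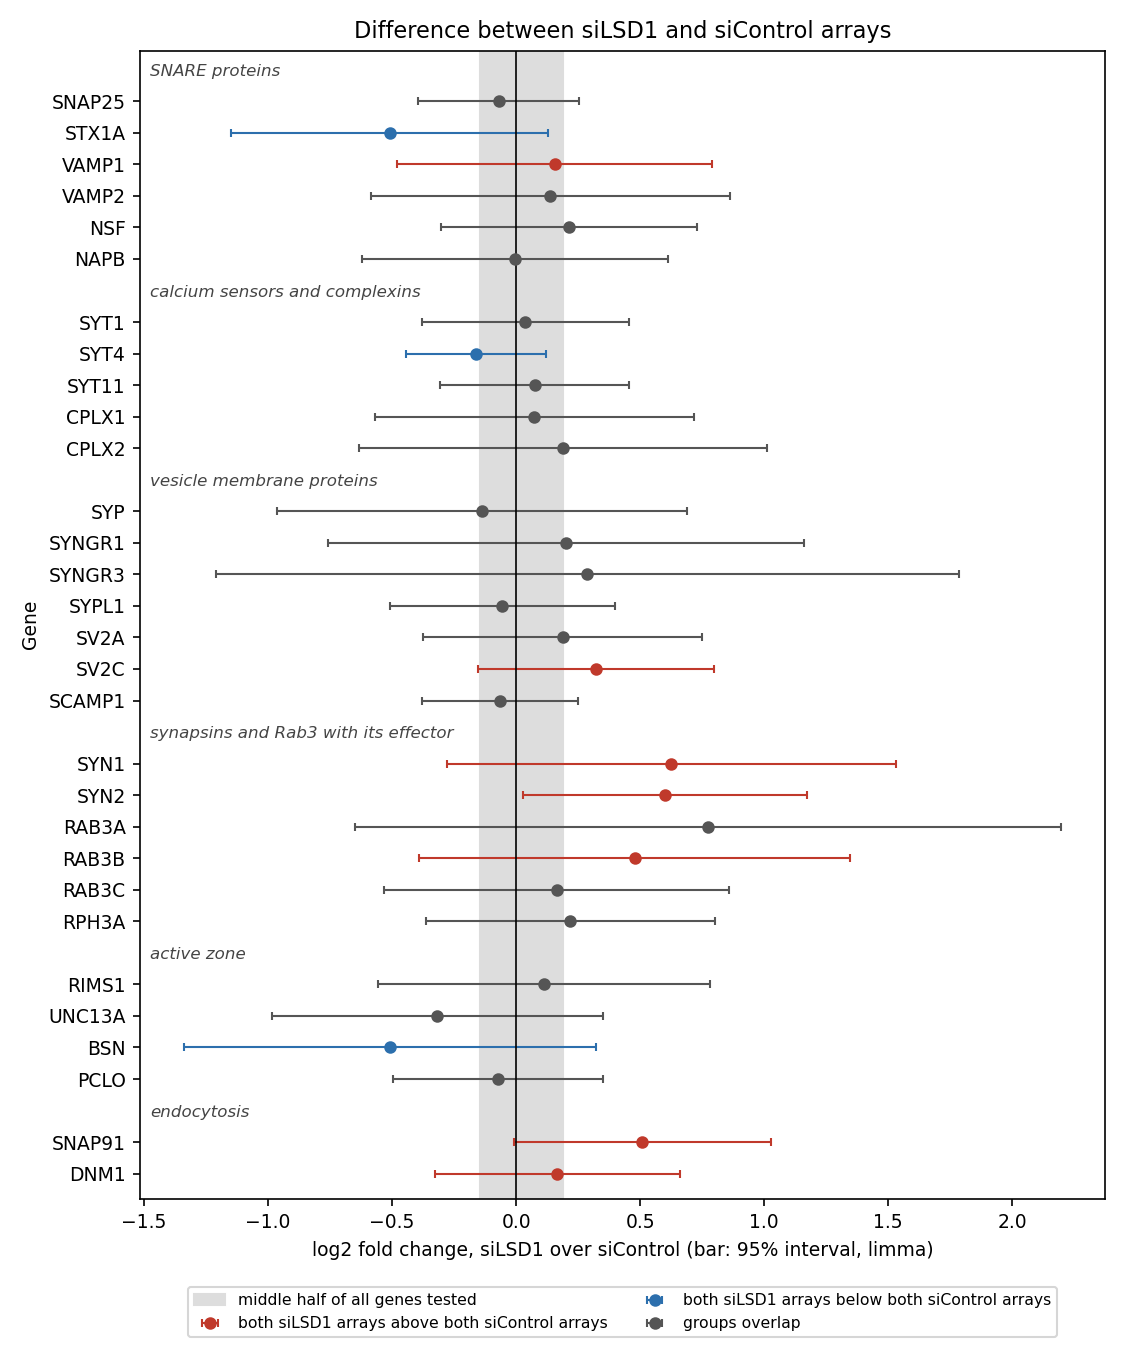
The log2 fold change of siLSD1 over siControl for the 30 tested genes, by role, with the 95% interval from limma as a bar, red and blue for genes whose arrays separate by group and grey for those that overlap. The shaded band is the interquartile range of all genes tested, -0.15 to 0.19. The interval of SYN2 alone leaves out 0.

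Membrane proteins of the vesicle included the SV2 glycoproteins, which act in vesicle priming. SV2C had signals of 9.55 and 9.02 on the siLSD1 arrays, against 8.91 and 9.01 on the siControl arrays. The groups were separate by less than 0.01, and the log2 fold change of 0.32 (95% interval -0.15 to 0.80) was 0.06 without siLSD1 replicate 1. Both other probe sets of SV2C above the filter gave similar values, 0.31 and 0.27. The second of these had signals of 7.42 and 7.30 on the siLSD1 arrays, against 7.07 and 7.11 on the siControl arrays, with separate groups. SV2A had 8.24 and 8.08 against 8.25 and 7.70, a log2 fold change of 0.19 with overlapping groups. SV2B was below the filter on every array, with 3.16 and 2.26 on the siLSD1 arrays and 3.73 and 3.22 on the siControl arrays.

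SYP, the gene of synaptophysin and a common marker of neuroendocrine tumours, had 5.09 and 4.78 on the siLSD1 arrays, against 5.29 and 4.85 on the siControl arrays. The log2 fold change was -0.14 (95% interval -0.96 to 0.69) with overlapping groups. SYPL1, a relative of synaptophysin found in many tissues, had 8.56 and 8.72 against 8.85 and 8.54, and its log2 fold change of -0.05 was 0.14 under median centring. SCAMP1, a carrier membrane protein of secretory vesicles, had 9.79 and 9.72 on the siLSD1 arrays, against 9.90 and 9.74 on the siControl arrays, and its log2 fold change of -0.06 was 0.09 under median centring. SYNGR1, a synaptogyrin, had 5.30 and 4.91 against 5.38 and 4.44, a log2 fold change of 0.20. SYNGR3, another synaptogyrin, had 5.82 and 7.16 on the siLSD1 arrays, against 5.19 and 7.21 on the siControl arrays. In SYNGR3 replicate 2 was the higher array in both groups, and the log2 fold change of 0.29 was -0.73 without siControl replicate 1 and 1.30 without siControl replicate 2.

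Active zone genes had lower means in siLSD1 cells for 3 of 4, with 0 past the test. BSN, the gene of the scaffold protein bassoon, had 4.89 and 4.85 on the siLSD1 arrays, against 5.70 and 5.06 on the siControl arrays. Both siLSD1 values were lower, by 0.17 at the closest, and the log2 fold change was -0.51 (95% interval -1.34 to 0.32, unadjusted p = 0.197, adjusted p = 0.9996 in limma). It was -0.19 without siControl replicate 1. UNC13A, which primes vesicles for fusion, had 5.96 and 6.12 on the siLSD1 arrays, against 6.59 and 6.12 on the siControl arrays, a log2 fold change of -0.32, while its second probe set above the filter gave 0.17. PCLO, the gene of the scaffold piccolo, had 8.55 and 8.58 against 8.73 and 8.56, and its log2 fold change of -0.07 was 0.12 under median centring. RIMS1, which links vesicles to calcium channels, had 5.69 and 5.96 against 5.74 and 5.68, and its log2 fold change of 0.11 was -0.88 with the mean of its probe sets, of which the others lay below the filter.

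Endocytic genes had higher siLSD1 values with separate groups in both tested members, where 16.6% of all genes tested did, and 0 passed. SNAP91, a clathrin adaptor of the synapse, had signals of 8.16 and 8.60 on the siLSD1 arrays, against 7.84 and 7.90 on the siControl arrays. Both siLSD1 values were higher, by 0.26 at the closest. This is a log2 fold change of 0.51, or 1.42-fold (95% interval -0.01 to 1.03), with an unadjusted p of 0.0537 and an adjusted p of 0.9996 in limma, and it ran from 0.29 to 0.73 when each array was left out in turn. This gene had 1 probe set, so no second one was at hand. DNM1, the dynamin of nerve terminals, had 7.80 and 7.87 on the siLSD1 arrays, against 7.58 and 7.76 on the siControl arrays. Its groups were separate by only 0.04, and the log2 fold change was 0.17 (95% interval -0.33 to 0.66). AMPH, the gene of amphiphysin, was below the filter, with 2.67 and 3.99 on the siLSD1 arrays and 3.51 and 3.93 on the siControl arrays.

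The intervals bound the difference only for the probe set that stands for each gene. None of the 30 genes had a difference of 2-fold or more, beside 1.37% of all genes tested. For 20 of the 30 the 95% interval lay within 2-fold in either direction, where 71.9% of all genes tested did. For 7 it lay within 1.5-fold in either direction, a share not computed over all genes tested. These were SNAP25, SYT1, SYT4, SYT11, SYPL1, SCAMP1 and PCLO. Other probe sets can lie outside. The second one of SYT1 above the filter gave 0.53, where the interval of SYT1 was -0.38 to 0.45. That of SYPL1 gave -0.53, where the interval was -0.51 to 0.40. Those of SCAMP1 above the filter ran from -0.83 to 0.0003, where the interval was -0.38 to 0.25. The widest intervals were those of SYNGR3 (-1.21 to 1.78) and RAB3A (-0.65 to 2.20), in which the control arrays lay far apart.

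Other probe sets on the same arrays carried the symbols of the same genes, and they need not measure the same transcripts. The 34 genes had 79 probe sets, of which 55 were above the filter. In siLSD1 cells 32 of these had a higher mean and 23 a lower one. Of the 25 probe sets above the filter that did not stand for their gene, 12 were higher and 13 lower. Among 13 genes with several probe sets above the filter, all of them pointed one way in 6, namely NSF, PCLO, SV2C, SYPL1, SYT1 and VAMP2. In 11 of the 25 the lowest array was siLSD1 replicate 2. By the probe set that stands for each gene, that array was lowest for 5 of the 30 tested genes and for 19% of all genes tested. The share was not computed over the further probe sets of all genes. That array had the strong ribosomal RNA signal and the largest 3′ over 5′ difference of beta-actin, and the part of RNA quality in these values was not tested. A second SNAP25 probe set, picked from the 11, had 8.07 and 7.37 on the siLSD1 arrays, against 8.09 and 8.12 on the siControl arrays. A probe set of SCAMP1 had 7.36 and 5.53 on the siLSD1 arrays, against 7.08 and 7.47 on the siControl arrays, and one of SYPL1 had 8.58 and 7.86, against 8.73 and 8.77.

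**Figure D4:**
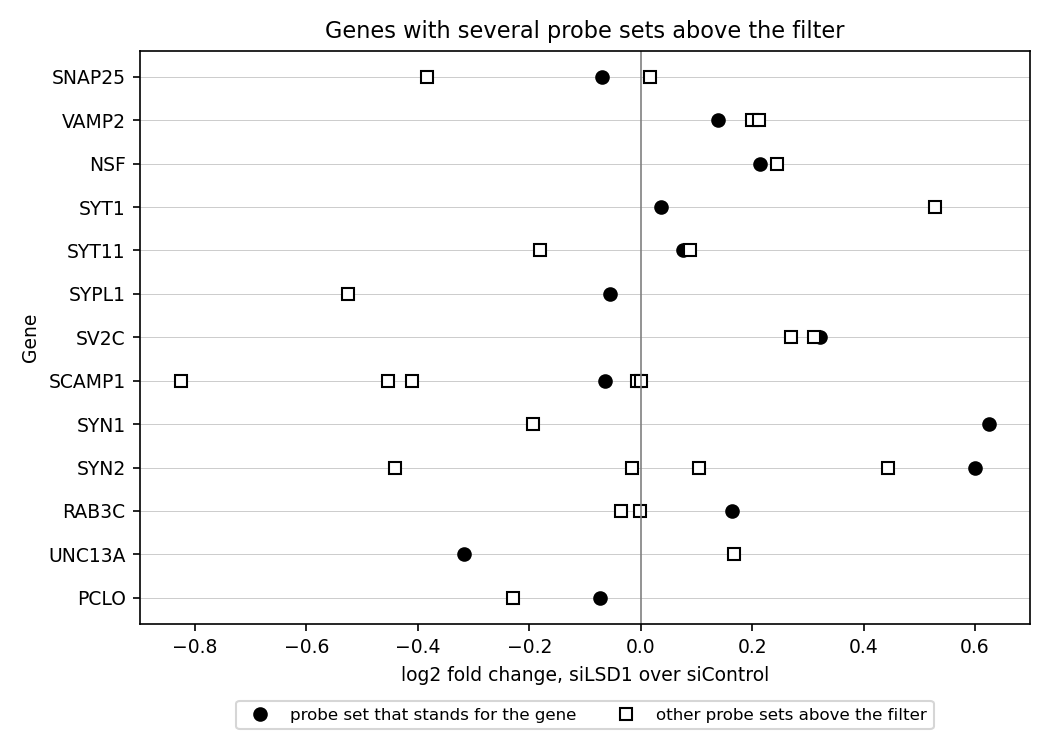
The log2 fold change of siLSD1 over siControl for the 13 genes with several probe sets above the filter, with the probe set that stands for the gene as a filled circle and the others as open squares. SV2C, VAMP2 and NSF have all of theirs on the higher side, while those of SYN1 and SYN2 lie on both sides of 0.

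A wider list of 90 other genes of vesicle traffic and exocytosis was compared in the same fit. It held further SNAREs, synaptotagmins, Rab effectors, active zone and endocytic proteins and vesicular transporters, and 82 had a probe set with their symbol alone and 57 were tested. The mean was higher in siLSD1 cells for 28 of the 57 and lower for 29. Their median log2 fold change was -0.0055, and 0 passed in limma. At an unadjusted p under 0.05 there was 1 gene, beside 3.45% of all genes tested. ITSN1, an endocytic scaffold, had 6.53 and 7.13 on the siLSD1 arrays, against 7.93 and 7.31 on the siControl arrays. Its log2 fold change of -0.79 (unadjusted p = 0.034, adjusted p = 0.9996 in limma) was -0.07 with the mean of its probe sets. NAPA, the widely expressed relative of NAPB, had 7.84 and 7.57 on the siLSD1 arrays, against 8.16 and 8.23 on the siControl arrays, a log2 fold change of -0.49.

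VAMP3, a SNARE of recycling endosomes, had 9.23 and 8.38 on the siLSD1 arrays, against 9.34 and 9.41 on the siControl arrays, and its log2 fold change of -0.57 was -0.14 without siLSD1 replicate 2. The genes with a higher mean and the smallest p in this list were CLTB, STXBP5 and SLC18A3. CLTB, a clathrin light chain, had 7.16 and 7.42 on the siLSD1 arrays, against 6.55 and 6.96 on the siControl arrays, and its log2 fold change of 0.53 was 0.08 with the mean of its probe sets. STXBP5, the gene of the syntaxin-binding protein tomosyn, had 5.68 and 5.98 against 5.38 and 5.09, a log2 fold change of 0.60. SLC18A3, the vesicular acetylcholine transporter, had 6.58 and 6.09 against 5.25 and 6.09, and its log2 fold change of 0.66 was 0.24 without siControl replicate 1.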

How the data were processed

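RNA of 4 cultures of 1 cell line was measured on Affymetrix arrays, 2 per group, with groups and replicate numbers taken from the sample titles. In the title of siLSD1 replicate 2 the target's name lacks its number. The deposited values were 1 log2 signal per probe set and array. Their base was found from the values, since base-2 antilogs had a trimmed mean of 100.0 on each array. The authors' way of summarising probes is not stated in the sources used here. The 54675 probe sets were quantile normalized and named through the platform annotation of 2016, where 41091 had 1 symbol. All 34 genes matched RefSeq (GRCh38.p14) by Entrez identifier.

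The comparison used limma 3.58.1 in R 4.3.3 (lmFit, eBayes with a mean-variance trend, no replicate term, two-sided, Benjamini-Hochberg over 11865 genes, 8.22 degrees of freedom). The fitting code was run on simulated data with equal variance on all arrays. The arrays here differed in spread, so that run does not show how often the fit misses real changes in these data. Precision is limited by the number of arrays. The genes, lists, roles and motifs were chosen with earlier results of these data known. All 34 genes are named, and of the wider list up to 3 per direction with the smallest unadjusted p. Alternatives were another scaling, no filter, the mean of all probe sets, a replicate term, no variance trend and leaving out each array. Same-numbered arrays deviated from their group means with a correlation of 0.05 over the tested genes, so the numbers were not taken as pairs.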

Additional observations from a re-analysis of the deposited data

How the results depend on the processing

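No gene of the list passed under any of the 10 alternatives, and the smallest adjusted p among them was 0.211, without siControl replicate 2. Without 1 array, between 0 and 83 genes of the series passed, the list's median log2 fold change ran from -0.11 to 0.19, its genes with separate groups from 13 to 25 (fewer arrays separate more easily), and the log2 fold change of KDM1A from -1.39 to -1.25. The list had separate groups for 13 of 30 genes without siLSD1 replicate 2, where 56.7% of all genes tested had them. The counts were 19 without siLSD1 replicate 1 (61.3% of all genes), 25 without siControl replicate 1 (68.4%) and 23 without siControl replicate 2 (76.9%). With the replicate block, 13 genes of the series passed, KDM1A among them (-1.32, adjusted p = 0.0194 in limma), and the calls of the list did not change. Under median centring the list's median was 0.34, and the sign turned for SNAP25 (0.091), NAPB (0.21), SYPL1 (0.14), SCAMP1 (0.087) and PCLO (0.12). NAPB also turned under the deposited scaling (0.034). With the mean of all probe sets it turned for SYT11 (-0.0052), CPLX2 (-0.23) and RIMS1 (-0.88). These are 9 turns among 180 values of the 30 genes, and the cause was not tested.
Without 1 array the log2 fold change turned in 18 of the 30 genes. It ran over these 4 fits from -0.20 to 0.48 in VAMP2, -0.062 to 0.49 in NSF, -0.31 to 0.30 in NAPB, -0.16 to 0.23 in SYT1, -0.061 to 0.21 in SYT11, -0.14 to 0.29 in CPLX1, -0.11 to 0.49 in CPLX2, -0.36 to 0.084 in SYP, -0.27 to 0.67 in SYNGR1, -0.73 to 1.30 in SYNGR3, -0.21 to 0.10 in SYPL1, -0.087 to 0.46 in SV2A, -0.14 to 0.017 in SCAMP1, -0.27 to 1.82 in RAB3A, -0.12 to 0.44 in RAB3C, -0.023 to 0.46 in RPH3A, -0.024 to 0.25 in RIMS1 and -0.16 to 0.011 in PCLO.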

Other observations

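A probe set of RAB3B that was too dim for the filter had the largest difference of the 79. Its signals were 4.21 and 4.20 on the siLSD1 arrays, against 1.42 and 1.08 on the siControl arrays, a log2 fold change of 2.95. It was singled out after its values were seen, and at signals this low the size is uncertain. The other RAB3B probe sets gave 0.72, 0.48, 0.38 and -0.61. A RIMS1 probe set below the filter went the other way, with a log2 fold change of -2.71. Its signals were 3.44 and 0.51 on the siLSD1 arrays, against 4.41 and 4.96 on the siControl arrays.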
